A study of Rattus norvegicus with 12 samples.

Results

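The natriuretic peptide system was followed through 8 genes: the 3 peptide genes Nppa, Nppb and Nppc, the 2 processing enzymes Corin and Furin, and the 3 receptors Npr1, Npr2 and Npr3. A gene was included when a probe set (the group of probes that stands for 1 transcript) carried its symbol and no other, and the 8 genes, with 1 probe set each, were part of 14324 genes so named. The arrays were Affymetrix arrays hybridised with RNA from cultures of neonatal rat heart muscle cells. The hearts of 2-day-old Sprague-Dawley pups were digested with enzymes, and the cells were kept on coverslips for 3 days before a further 3 days with DEHP, or di(2-ethylhexyl) phthalate, which is used to soften PVC plastic. DEHP was given at 1, 10 or 50 µg/ml in 0.1% dimethyl sulphoxide, and the vehicle cultures received 0.1% dimethyl sulphoxide alone. The 4 groups had 3 arrays each and all cells came from 1 litter, so p-values here hold for the spread among its cultures alone. Every comparison with vehicle used the same 3 vehicle arrays.

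The heart is an endocrine organ through this system. Nppa encodes atrial natriuretic peptide and Nppb encodes B-type natriuretic peptide; both are made by heart muscle cells, relax blood vessels and promote the excretion of salt and water, and both genes are known as markers of the fetal heart and of heart muscle under load. Nppc encodes C-type natriuretic peptide, which is best known from endothelial cells and cartilage. The peptides are made as longer precursors that Corin, a serine protease of the cell surface, and Furin, a convertase of the secretory pathway, cut to their active forms. Npr1 binds the products of Nppa and Nppb and Npr2 binds that of Nppc; both make cyclic GMP inside the cell, whereas Npr3 has no cyclase of its own and takes up and removes all of the peptides.

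Nppa and Nppb lie side by side in the rat genome with 0 genes between them, and Nppc lies on another chromosome. The sequence before each of the 3 peptide genes is shown here, as given by RefSeq for the build GRCr8 and read in the direction of the gene, since at 50 µg/ml Nppc rose, Nppa fell and Nppb was not called. Capitals mark matches to GATAA (the core bound by GATA factors), CATTCC (the M-CAT element bound by TEAD factors) and TATAAA (the TATA box) on either strand. A match on the opposite strand appears as its reverse complement, such as TTTATA for TATAAA and GGAATG for CATTCC. The stretch before Nppa was chr5:163711934-163712183 (plus strand), that before Nppb was chr5:163699758-163699954 (plus strand), and that before Nppc was chr9:94772187-94772436 (minus strand). Each stretch ends at the base before the annotated gene. For Nppb the start site of the promoter table lies further in, so that the 53 bases between the printed stretch and that start are not shown.
Nppa: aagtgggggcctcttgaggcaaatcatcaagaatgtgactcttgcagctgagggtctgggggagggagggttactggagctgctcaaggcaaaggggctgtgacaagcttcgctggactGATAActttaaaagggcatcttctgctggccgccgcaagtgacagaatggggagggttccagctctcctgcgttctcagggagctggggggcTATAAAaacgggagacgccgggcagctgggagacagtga
Nppb: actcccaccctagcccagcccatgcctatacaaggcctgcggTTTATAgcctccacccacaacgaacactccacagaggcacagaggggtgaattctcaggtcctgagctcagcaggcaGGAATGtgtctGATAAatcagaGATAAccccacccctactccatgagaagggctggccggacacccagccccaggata
Nppc: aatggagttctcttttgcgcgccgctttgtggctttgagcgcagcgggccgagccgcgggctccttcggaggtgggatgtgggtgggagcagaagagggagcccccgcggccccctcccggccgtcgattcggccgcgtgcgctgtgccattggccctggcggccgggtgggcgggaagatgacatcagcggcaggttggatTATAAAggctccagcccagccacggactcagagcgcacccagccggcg

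In the 250 bases before the start site of the promoter table, Nppa held 1 match to GATAA and 1 to TATAAA, with the TATA match ending 34 bases before the start. Nppb held 3 matches to GATAA, of which 2 stand in the 197 bases printed, besides 1 to the M-CAT element and 1 to the TATA box, both on the opposite strand. Nppc held 1 match to the TATA box, ending 43 bases before the start, and none to the GATA core or the M-CAT element. TNAAGTG, a form of the site bound by Nkx2-5, was searched on both strands as well and had 0 matches in the 3 windows. No matches shared bases. Of 33360 rat promoters, windows of the same length held the GATA core in 23.5%, the M-CAT element in 12.1%, the TATA box in 12.9% and the Nkx2-5 site in 9.87%. These matches describe letters only. The other entries of the table of promoters, which listed 6 of the 8 genes, are not printed.

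Values below are log2 ratios of an array to the probe set's own median on all 12 arrays. The level of a gene is lost in such a ratio, so genes cannot be ranked by abundance, and presence or absence of a cell type's markers in the cultures could not be read either. The direction (array over median, a larger value meaning more RNA) was taken as read. A difference was called when its limma p-value, two-sided and with Benjamini-Hochberg adjustment across the 14324 genes, was under 0.05. Errors of differences are standard errors with n = 3 arrays per group. The median ratio of single arrays was between 0.994 and 1.01. Replicate 2 at 10 µg/ml stood apart from its group, with an SD over genes of 0.17 on the log2 scale against 0.088 and 0.097 for the other arrays of that dose.

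At 50 µg/ml, 4 of the 8 genes changed against the vehicle. Nppc and Npr3 rose, Nppa and Corin fell, and Nppb, Npr1, Npr2 and Furin did not pass the test. Over all genes, 17.6% were called in this comparison, 8.75% as higher and 8.84% as lower. For 5 of the 8 genes the 3 arrays at 50 µg/ml lay entirely on one side of the 3 vehicle arrays, against 36% of all genes. At 10 and at 1 µg/ml this held for 3 of the 8 genes each, against 11.2% and 30.8% of all genes. The median difference at 50 µg/ml was 0.043 over the 8 genes and 0.018 over all genes. The 8 genes were chosen with earlier results of these data known, so their counts beside these shares, here and below, do not test the set. At 10 µg/ml, 0 of the 8 genes were called against the vehicle and 0% of all genes were, with limma finding 899 genes, 2 of the 8 among them, at an unadjusted p under 0.05. At 1 µg/ml, 0 of the 8 were called against 4.24% of all genes, and 4 of the 8 had an unadjusted p under 0.05, as did 2889 of the 14324 genes. A test of any variation over the 4 groups (the moderated F of limma) called 6 of the 8 genes, all but Npr1 and Npr2, against 27.2% of all genes. The call of Nppb (adjusted p = 0.0386) was kept in 8 of 19 alternatives. It was lost without vehicle replicate 3, without replicate 2 or 3 at 1 µg/ml, without replicate 2 or 3 at 10 µg/ml, and without any 1 replicate at 50 µg/ml (adjusted p from 0.0505 to 0.128).

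**Figure D1:**
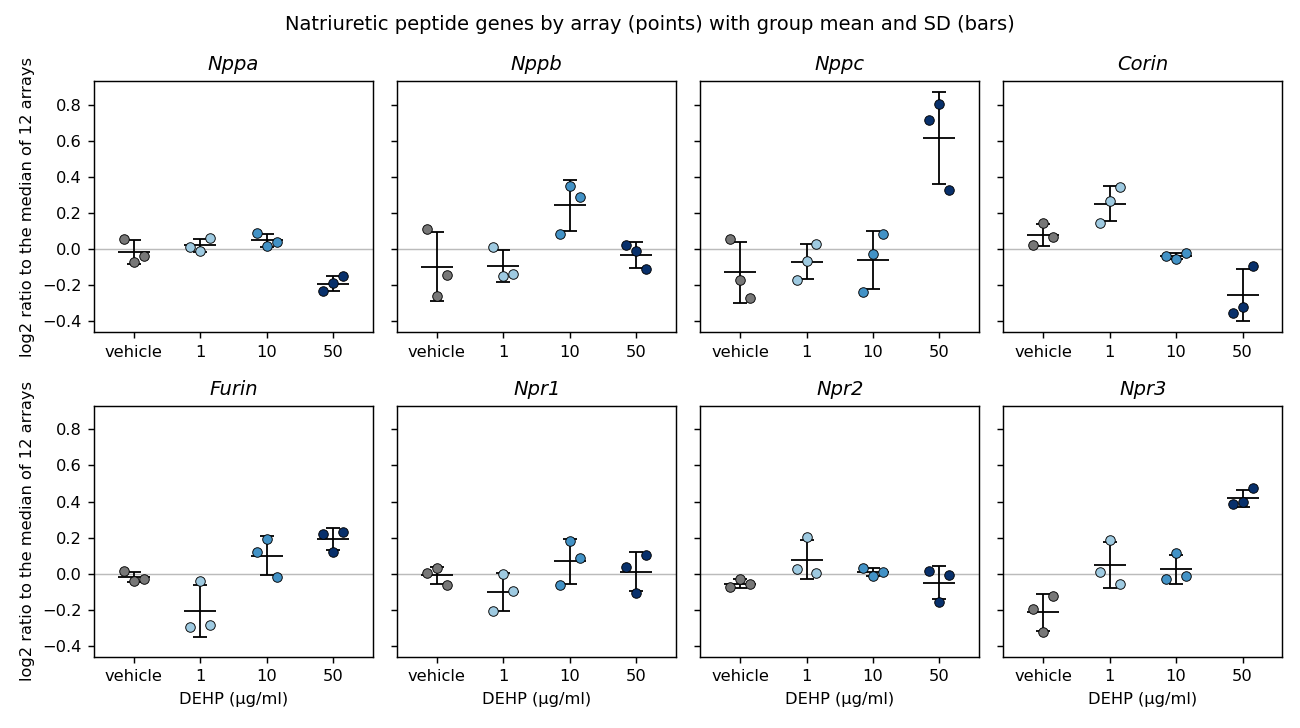
Each panel shows 1 gene, with DEHP in µg/ml on the x axis and the log2 ratio to the median of the 12 arrays on the y axis. Points are arrays (3 per group), horizontal bars are group means and vertical bars are SDs. Nppc and Npr3 stand highest at 50 µg/ml (means 0.61 and 0.42), Nppa and Corin lowest there (means -0.19 and -0.25), and Nppb is highest at 10 µg/ml (mean 0.24).

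Nppa, the atrial natriuretic peptide gene, was lower at 50 µg/ml than in every other group. Its log2 ratios were -0.23, -0.19 and -0.15 at 50 µg/ml, against 0.058, -0.069 and -0.039 in the vehicle. At 1 µg/ml they were 0.010, -0.010 and 0.061, and at 10 µg/ml 0.089, 0.018 and 0.041. All 3 arrays at 50 µg/ml lay below all 9 others, which overlapped each other. Nppa fell by 0.17 ± 0.048 at 50 µg/ml against the vehicle (0.886-fold, limma adjusted p = 0.0239), by 0.21 against 1 µg/ml (adjusted p = 0.00733) and by 0.24 against 10 µg/ml (adjusted p = 0.00437). The vehicle, 1 and 10 µg/ml groups did not differ beyond their spread in any pair (adjusted p from 0.733 to 0.835). The fall against the vehicle was the smallest of the called changes: it missed the threshold without vehicle replicate 1 (-0.14, adjusted p = 0.113), without vehicle replicate 3 (0.0502), and without replicate 1 (0.0793) or replicate 2 (0.054) at 50 µg/ml, and also when quantile normalization was applied again (-0.13, adjusted p = 0.15).

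Nppb, the B-type natriuretic peptide gene next to Nppa, had its highest values at 10 µg/ml. The log2 ratios were 0.11, -0.26 and -0.15 in the vehicle and 0.0094, -0.15 and -0.14 at 1 µg/ml. They were 0.084, 0.35 and 0.29 at 10 µg/ml and 0.025, -0.0094 and -0.11 at 50 µg/ml. The lowest array at 10 µg/ml lay above every array at 1 and 50 µg/ml, but below the highest vehicle array. Nppb rose by 0.34 ± 0.093 at 10 against 1 µg/ml (1.26-fold, adjusted p = 0.033). The same size of difference, 0.34 ± 0.093, was not called at 10 µg/ml against the vehicle (adjusted p = 0.546), a comparison in which no gene was called. At 50 µg/ml the difference from the vehicle was 0.065 ± 0.093 (adjusted p = 0.715), with a 95% interval of -0.14 to 0.27, and that from 10 µg/ml was -0.27 ± 0.093 (adjusted p = 0.0707), which passed without vehicle replicate 1 (0.0328) or without replicate 1 at 10 µg/ml (-0.35, 0.0364). The call at 10 against 1 µg/ml was lost without replicate 2 (0.28, adjusted p = 0.116) or replicate 3 (0.31, 0.0611) at 10 µg/ml and without replicate 2 (0.31, 0.0903) or replicate 3 (0.31, 0.109) at 1 µg/ml. It was also lost with only the compared groups (0.0583), with array weights (0.0976) and with quantile normalization applied again (0.0582).

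Nppc, the C-type natriuretic peptide gene, had the largest rise of the 8 genes. Its log2 ratios at 50 µg/ml were 0.71, 0.80 and 0.33, against 0.057, -0.17 and -0.27 in the vehicle. At 1 µg/ml they were -0.17, -0.064 and 0.027, and at 10 µg/ml -0.24, -0.027 and 0.082. The arrays at 50 µg/ml lay above all 9 others, with replicate 3 well under its group mates, and the other 3 groups overlapped. Nppc rose by 0.74 ± 0.12 at 50 µg/ml against the vehicle (1.67-fold, adjusted p = 0.00104), by 0.68 against 1 µg/ml (adjusted p = 0.00193) and by 0.67 against 10 µg/ml (adjusted p = 0.00249). At 10 and at 1 µg/ml the differences from the vehicle were 0.068 and 0.060 (adjusted p = 0.954 and 0.847).

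Nppa and Nppb share a locus, and whether they changed unequally was tested. The difference of their log2 ratios within an array, Nppb minus Nppa, averaged -0.080 ± 0.12 in the vehicle and -0.11 ± 0.10 at 1 µg/ml, and 0.19 ± 0.18 at 10 µg/ml and 0.16 ± 0.11 at 50 µg/ml (SD, n = 3 each). The arrays at 50 µg/ml, from 0.040 to 0.26, overlapped those in the vehicle and lay above all 3 at 1 µg/ml, and the arrays at 10 µg/ml overlapped every other group. A permutation test over the 12 arrays (100000 resamples, F = 4.37) gave p = 0.0592, both before and after adjustment over the 2 pairs of genes compared, so unequal change of the neighbours was not shown at these numbers. F was 8.27 (adjusted p = 0.0152) without replicate 1 at 10 µg/ml and 5.34 (adjusted p = 0.0479) without vehicle replicate 1.

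Corin, the protease that cuts the Nppa precursor, was highest at 1 µg/ml and lowest at 50 µg/ml. Its log2 ratios were 0.023, 0.14 and 0.069 in the vehicle and 0.15, 0.27 and 0.34 at 1 µg/ml. They were -0.038, -0.055 and -0.023 at 10 µg/ml and -0.35, -0.32 and -0.092 at 50 µg/ml. Each group lay apart from its neighbours in this order of levels, with replicate 3 at 50 µg/ml close to the arrays at 10 µg/ml. Corin fell by 0.33 ± 0.070 at 50 µg/ml against the vehicle (0.794-fold, adjusted p = 0.00552) and by 0.51 ± 0.070 against 1 µg/ml (0.704-fold, adjusted p = 0.000324), and it fell by 0.29 ± 0.070 at 10 against 1 µg/ml (adjusted p = 0.0193). This last call was lost without replicate 3 at 1 µg/ml (-0.25, 0.0825) or without replicate 2 at 10 µg/ml (-0.28, 0.0565). The step from vehicle to 1 µg/ml (0.17 ± 0.070, adjusted p = 0.187) and the steps from vehicle to 10 µg/ml (-0.12, 0.807) and from 10 to 50 µg/ml (-0.22, 0.0599) did not pass. The step from 10 to 50 µg/ml was -0.30 (adjusted p = 0.00947) without replicate 3 at 50 µg/ml.

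Furin, the convertase that acts on the precursors of the Nppb and Nppc peptides, had the opposite order of group means. Its log2 ratios were 0.016, -0.038 and -0.028 in the vehicle and -0.29, -0.038 and -0.28 at 1 µg/ml. They were 0.12, 0.19 and -0.016 at 10 µg/ml and 0.22, 0.12 and 0.23 at 50 µg/ml. The arrays at 50 µg/ml lay above all vehicle and 1 µg/ml arrays and overlapped those at 10 µg/ml. Furin rose by 0.40 ± 0.073 at 50 against 1 µg/ml (1.32-fold, adjusted p = 0.00221) and by 0.31 ± 0.073 at 10 against 1 µg/ml (1.24-fold, adjusted p = 0.018). The call at 10 against 1 µg/ml was lost without replicate 1 (0.26, adjusted p = 0.0725) or replicate 3 (0.27, 0.0768) at 1 µg/ml, without replicate 2 at 10 µg/ml (0.26, 0.0673) and with only the compared groups (0.0787). Against the vehicle, the differences were -0.19 ± 0.073 at 1 µg/ml (adjusted p = 0.167), 0.12 ± 0.073 at 10 µg/ml (0.807) and 0.21 ± 0.073 at 50 µg/ml (0.0711), none of which passed. The difference at 50 µg/ml was called in 4 of 20 alternatives: without replicate 2 at 1 µg/ml (0.0299), without replicate 2 at 10 µg/ml (0.0483), with only the compared groups (0.0193) and with array weights (0.029).

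Npr3, the clearance receptor, rose by the widest margin over its error. Its log2 ratios at 50 µg/ml were 0.39, 0.40 and 0.47, against -0.19, -0.32 and -0.12 in the vehicle. They were 0.011, 0.19 and -0.058 at 1 µg/ml and -0.031, 0.12 and -0.011 at 10 µg/ml. The vehicle arrays were the 3 lowest of the 12 and the arrays at 50 µg/ml the 3 highest, while 1 and 10 µg/ml overlapped in between. Npr3 rose by 0.63 ± 0.071 at 50 µg/ml against the vehicle (1.55-fold, adjusted p = 5.74e-05), by 0.37 against 1 µg/ml (adjusted p = 0.00287) and by 0.39 against 10 µg/ml (adjusted p = 0.0024). At the lower doses the differences from the vehicle were 0.26 ± 0.071 at 1 µg/ml (adjusted p = 0.0607) and 0.24 ± 0.071 at 10 µg/ml (adjusted p = 0.635). The difference at 1 µg/ml passed the threshold without replicate 2 at 10 µg/ml (adjusted p = 0.0331), with array weights (0.0162) and with quantile normalization applied again (0.38, 0.0105).

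Npr1 and Npr2, the receptors that make cyclic GMP, were not called in any comparison. The log2 ratios of Npr1 were 0.037, -0.11 and 0.11 at 50 µg/ml, against 0.0023, 0.031 and -0.061 in the vehicle, with a difference of 0.021 ± 0.075 (adjusted p = 0.891) and a 95% interval of -0.14 to 0.18. Those of Npr2 were 0.017, -0.16 and -0.0070 at 50 µg/ml, against -0.074, -0.029 and -0.059 in the vehicle, with a difference of 0.0054 ± 0.060 (adjusted p = 0.967) and a 95% interval of -0.13 to 0.14. The arrays at 50 µg/ml and in the vehicle overlapped for both genes, whereas those of Npr2 at 1 and 10 µg/ml lay above all vehicle arrays. Such a separation, in either direction, held for 30.8% of all genes at 1 µg/ml and 11.2% at 10 µg/ml. At 1 µg/ml Npr1 had -0.21, -0.0023 and -0.093 and Npr2 had 0.025, 0.20 and 0.0070. At 10 µg/ml Npr1 had -0.064, 0.18 and 0.089 and Npr2 had 0.032, -0.013 and 0.0071. The largest differences from the vehicle below 50 µg/ml were -0.092 for Npr1 (adjusted p = 0.551) and 0.13 for Npr2 (adjusted p = 0.243), both at 1 µg/ml.

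**Figure D2:**
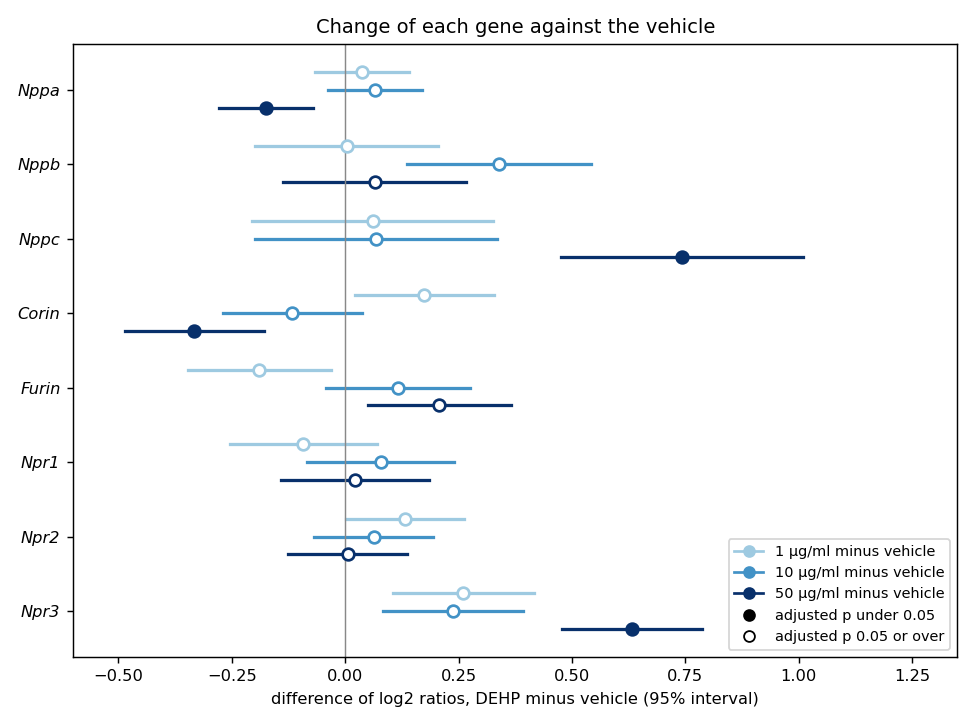
For each gene, points give the difference of log2 ratios from the vehicle at 1, 10 and 50 µg/ml (from top to bottom), and lines are 95% intervals from limma with 3 arrays per group. Filled points had an adjusted p under 0.05. The filled points are Nppa (-0.17), Nppc (0.74), Corin (-0.33) and Npr3 (0.63), all at 50 µg/ml, and the intervals of Npr1 and Npr2 at that dose span 0.

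The clearance receptor and the cyclase receptor for the Nppa and Nppb peptides changed unequally. Npr3 minus Npr1 within an array averaged -0.20 ± 0.15 in the vehicle, 0.15 ± 0.099 at 1 µg/ml, -0.044 ± 0.069 at 10 µg/ml and 0.41 ± 0.086 at 50 µg/ml (SD, n = 3 each). The arrays at 50 µg/ml, between 0.35 and 0.51, lay above the 9 others, of which the highest was 0.22. A permutation test over the 12 arrays (100000 resamples, F = 19.2) gave p = 0.00032 and 0.00064 after adjustment over the 2 pairs of genes. As each gene's ratio has its own centre, the value gives the change of one receptor against the other and not which of them was more abundant.

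**Figure D3:**
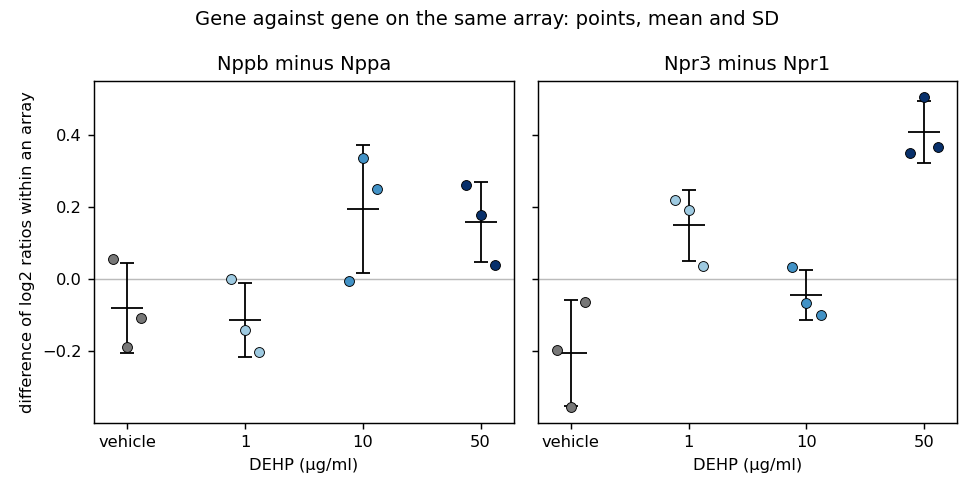
The y axis gives the difference of 2 genes' log2 ratios on the same array and the x axis the dose of DEHP in µg/ml. Points are arrays, horizontal bars are means and vertical bars SDs (n = 3 each). Npr3 minus Npr1 is between 0.35 and 0.51 at 50 µg/ml, above all other arrays, while Nppb minus Nppa at 50 µg/ml (0.040 to 0.26) overlaps the vehicle and lies above 1 µg/ml.

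The series title names dose dependence, so the doses were also compared with each other. At 50 against 10 µg/ml, 3 of the 8 genes were called (Nppc and Npr3 higher, Nppa lower), against 14.6% of all genes. At 50 against 1 µg/ml, 5 of the 8 were called (Nppc, Npr3 and Furin higher, Nppa and Corin lower), against 24.9% of all genes. At 10 against 1 µg/ml, 3 of the 8 were called (Nppb and Furin higher, Corin lower), against 14% of all genes. A linear trend over the order of the 4 doses called 5 of the 8 genes, against 18.3% of all genes. Per step of dose, Nppc rose by 0.22 (adjusted p = 0.0016), Npr3 by 0.19 (0.000112) and Furin by 0.093 (0.0145), whereas Corin fell by 0.13 (0.00158) and Nppa fell by 0.050 (0.0391). The trend of Nppa was kept in 11 of 19 alternatives. It was lost without vehicle replicate 1 (0.153) or 3 (0.0701), without replicate 1 (0.0541) or 3 (0.0575) at 1 µg/ml, without replicate 1 (0.103) or 2 (0.0806) at 50 µg/ml, with a replicate block (0.051) and with quantile normalization applied again (0.228). A called trend did not mean steady steps: the means of Nppc and Nppa at 1 and 10 µg/ml stayed near the vehicle, and those of Corin and Furin at 1 µg/ml lay on the other side of the vehicle from those at 50 µg/ml.

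Among other enzymes and partners of peptide processing and clearance, 2 of 13 measured genes rose and 1 fell at 50 µg/ml, with a median difference of 0.036, and 0 were called at 1 or 10 µg/ml. Over all genes, 8.75% were called higher and 8.84% lower at 50 µg/ml. A count near these shares, here or in the lists below, is not read as a response of the list. Pcsk5, a proprotein convertase related to Furin, had log2 ratios of 0.51, 0.41 and 0.65 at 50 µg/ml, against -0.064, 0.030 and -0.0017 in the vehicle, and rose by 0.54 ± 0.072 (adjusted p = 0.000216). Dpp4, a peptidase that in humans trims the B-type peptide, rose by 0.31 ± 0.066 (adjusted p = 0.0055). Pcsk6, the convertase that activates Corin in mice, had -0.30, -0.42 and -0.29 at 50 µg/ml, against 0.065, -0.056 and 0.020 in the vehicle, and fell by 0.35 ± 0.080 (adjusted p = 0.00913). The arrays of Pcsk5 and of Pcsk6 did not overlap between these groups. Mme, or neprilysin, which degrades natriuretic peptides, is named after its values were seen: its difference was 0.019 ± 0.13 (adjusted p = 0.944).

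Among the genes of cyclic GMP signalling, 4 of 19 measured rose and 1 fell at 50 µg/ml, with a median difference of 0.045, and 0 were called at 1 or 10 µg/ml. At 50 µg/ml 17.6% of all genes were called. Gucy1a1 and Gucy1a2, alpha subunits of the soluble guanylyl cyclase that nitric oxide activates, rose by 0.45 ± 0.056 (adjusted p = 0.000119) and 0.45 ± 0.095 (adjusted p = 0.00564). Pde3b, a phosphodiesterase that cyclic GMP inhibits, rose by 0.35 ± 0.083 (adjusted p = 0.0105). Rgs4, which turns off signalling through G proteins, had log2 ratios of -0.74, -0.84 and -0.89 at 50 µg/ml, against 0.31, 0.056 and 0.078 in the vehicle. Its fall by 0.97 ± 0.11 (adjusted p = 4.35e-05) was the largest change in the list. The fourth gene to rise, Pde2a, and those that did not pass, Pde5a (0.045, adjusted p = 0.669) and the kinase gene Prkg1 (-0.24, adjusted p = 0.0827), are named after their values were seen.

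Of the transcription factors and their partners known to act at the natriuretic peptide genes, 6 of 14 measured rose and 0 fell at 50 µg/ml, with a median difference of 0.22. At 1 or 10 µg/ml 0 were called. Among all genes, 8.75% were called higher and 8.84% lower at 50 µg/ml. Hopx, a homeodomain protein that restrains serum response factor, had log2 ratios of 0.85, 0.78 and 0.80 at 50 µg/ml, against -0.071, -0.013 and -0.078 in the vehicle, and rose by 0.86 ± 0.067 (adjusted p = 2.57e-06). Srf, serum response factor itself, rose by 0.34 ± 0.050 (adjusted p = 0.000454). As the list holds both this factor and Hopx, which restrains it, its counts have no single direction of effect on the peptide genes. Gata6, a GATA factor of the heart, rose by 0.28 ± 0.079 (adjusted p = 0.0297), and Zfpm2, a partner of GATA factors, by 0.24 ± 0.067 (adjusted p = 0.0283). Gata4, named after its values were seen, had a difference of 0.21 ± 0.072 (adjusted p = 0.0632). GATAA stands before Nppa and Nppb in the sequences above, and it was also found in 23.5% of rat promoters. Nppa and Nppb had differences of -0.17 and 0.065 at 50 µg/ml against the vehicle. Whether GATA factors bound or regulated these genes in the cultures was not tested.

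A list of genes that, like Nppa and Nppb, respond to load or change between the fetal and the adult heart held both genes known to go up and genes known to go down under load. Of its 13 measured genes 5 rose and 1 fell at 50 µg/ml, with a median difference of 0.14, and these counts have no single direction on the scale of load. The share of all genes called at this dose was 17.6%. Myh6, the alpha myosin heavy chain of the adult rodent ventricle, which is known to go down under load, rose by 0.63 ± 0.084 (adjusted p = 0.00021), with 0.47, 0.35 and 0.54 at 50 µg/ml against -0.013, -0.14 and -0.38 in the vehicle. Atp2a2, the calcium pump of the sarcoplasmic reticulum and also known to go down, had a difference of 0.17 (adjusted p = 0.0245) and is named after its values were seen. Acta1, the skeletal alpha actin of the fetal heart, rose by 0.58 ± 0.14 (adjusted p = 0.0115), and Cited4, a transcriptional co-regulator, by 0.43 ± 0.083 (adjusted p = 0.00317). Ccn2, a matrix-associated growth factor, fell by 0.37 ± 0.049 (adjusted p = 0.000201). Myh7, the beta myosin heavy chain of the fetal rodent ventricle, is named after its values were seen and had a difference of 0.19 ± 0.083 (adjusted p = 0.148). Xirp2, an actin-binding protein of the cell junctions of heart muscle that is also named after its values were seen, and Ccn2 were the genes of this list called at 1 µg/ml, where Xirp2 rose by 0.49 (adjusted p = 0.0289) and Ccn2 fell by 0.28 (adjusted p = 0.00885). At 10 µg/ml 0 of the 13 were called, and over all genes 4.24% were called at 1 µg/ml and 0% at 10 µg/ml.

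**Figure D4:**
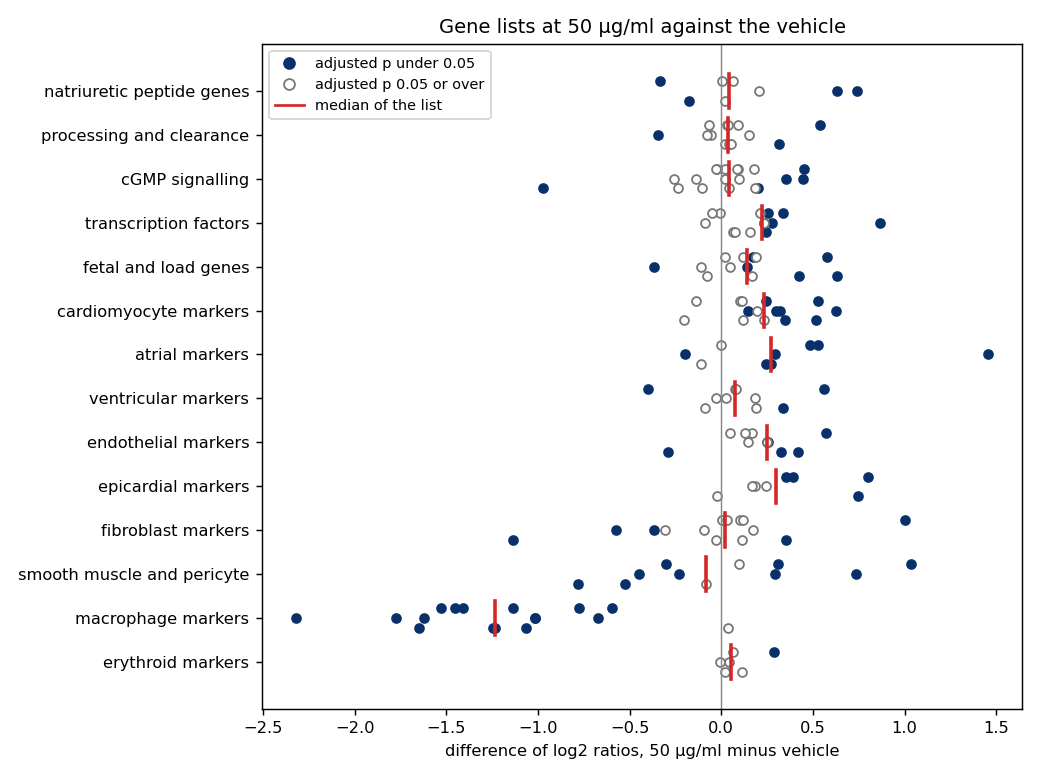
Each row is a list of genes and each point 1 gene, placed by its difference of log2 ratios, 50 µg/ml minus vehicle. Filled points had an adjusted p under 0.05, and the vertical bar is the median of the list. The natriuretic peptide genes spread on both sides of 0 (median 0.043), the transcription factors lie mostly above it (median 0.22), and the macrophage markers lie far below it (median -1.24).

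Some markers of heart muscle and of other cells found in heart cultures changed at 50 µg/ml, where 8.75% of all genes were called higher and 8.84% lower. In RNA from a whole culture, fewer cells of a type and less RNA per cell cannot be told apart. Of 15 cardiomyocyte markers 8 rose and 0 fell at 50 µg/ml (median 0.235), with array medians of the list from 0.0051 to 0.12 at 50 µg/ml and from -0.25 to -0.012 in the vehicle. Of 9 atrial markers 6 rose and 1 fell (median 0.27), with Myl7, the atrial myosin light chain, up by 1.45 ± 0.10 (adjusted p = 1.21e-06), while Nppa, itself an atrial product in the adult heart, fell. Of 10 genes listed as ventricular markers 2 rose and 1 fell (median 0.076). The 1 that fell was Gja5 (-0.40 ± 0.086, limma adjusted p = 0.00578), which is not confined to the ventricle. Of 17 macrophage markers 0 rose and 16 fell (median -1.24), with array medians from -1.17 to -0.96 at 50 µg/ml and from 0.165 to 0.26 in the vehicle. At 10 µg/ml, where Nppb was highest and 0% of all genes were called, 0 of the 15 cardiomyocyte markers were called. Their differences from the vehicle at 10 µg/ml ran from 0.0061 to 0.32 (median 0.175), beside 0.34 for Nppb.

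Nppc and Npr3 are also expressed by cells of vessels and of the lining of the heart. Of 11 endothelial markers 5 rose and 1 fell at 50 µg/ml (median 0.25), with array medians from 0.19 to 0.26 at 50 µg/ml and from -0.025 to 0.033 in the vehicle. At 1 µg/ml 0 of them rose and 3 fell (median -0.26), where Nppc and Npr3 had differences of 0.060 and 0.26 and 4.24% of all genes were called. Endothelial markers were not alone at 1 µg/ml: 3 of 17 macrophage (median -0.27) and 3 of 14 fibroblast markers (median -0.076) fell, and 2 of 15 cardiomyocyte markers (median 0.053) rose. Of 8 epicardial markers 4 rose and 0 fell (median 0.30), of 14 fibroblast markers 2 rose and 3 fell (median 0.020), of 11 smooth muscle and pericyte markers 4 rose and 5 fell (median -0.085), and of 6 erythroid markers 1 rose and 0 fell (median 0.054), all at 50 µg/ml. The erythroid count is near the 17.6% of all genes called at that dose. The part of the cell makeup in the changes of the natriuretic peptide genes was not tested.

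As a description of likeness, the 3 genes with the highest Pearson correlation to each member over the 12 arrays were listed for the 6 genes called by the moderated F. These correlations include any separation of the groups, and no within-group value is given. They were picked as the highest over all genes on only 12 arrays, so they are high by selection and test no link between genes. Npr3 was closest to Mnt (r = 0.966), Cacna1h (0.957) and Fam3a (0.953), and Nppc to Atxn7l2 (0.935), Efnb3 (0.934) and Egfl6 (0.93). Nppa was closest to Mrpl53 (0.926), Necap1 (0.916) and Ddah1 (0.916). Nppb had lower values, with Hip1r (0.851) and the muscle genes Tnni3 (cardiac troponin I, 0.837) and Des (desmin, 0.831). Corin was closest to Enpep (0.945), Slc40a1 (0.941) and Scg2 (0.938), and Furin to Xylt1 (0.96), Lrp1 (0.959) and Erc2 (0.956).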

How the data were processed

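RNA from 12 neonatal rat cardiomyocyte cultures was measured on Affymetrix arrays, 3 per group. RMA (background correction, quantile normalization and probe summary) was used per the submitters' processing notes, with no version given. Each deposited value is a linear ratio of an array to the probe set's median over the 12 arrays; the values themselves show this, because on the log scale the midpoint of the 6th and 7th values was 0 within 1e-06. Neither the direction of the ratio nor the genome build of the probes is recorded in the sources used here. Of 27342 probe sets, 15097 had 1 gene symbol, 323 several and 11922 none in the platform annotation, and 15067 were found by Entrez identifier in the RefSeq gene table for GRCr8.

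Ratios were converted to log2 and averaged over the probe sets of a gene (499 of 14324 genes had several). limma 3.58.1 in R 4.3.3 fitted the 4 group means over all arrays with empirical Bayes moderation (8 residual degrees of freedom), and the median residual SD was 0.082. Tests were two-sided with Benjamini-Hochberg adjustment over all genes and a threshold of 0.05. With 3 arrays a group, the smallest p of an exact permutation test of 2 groups is 0.1. The limma and permutation steps were tested on simulated data. Genes named were the 8 members, up to 4 called genes of each of 4 pathway lists (smallest p at 50 µg/ml), at most 3 genes of a marker list, and the 3 genes most like each member. The members and all lists were chosen with earlier results of these data known. Alternatives were quantile normalization applied again, centring on array medians, other forms of moderation, array weights, compared groups alone, probe set level, a replicate block and leaving out each array.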

Additional observations from a re-analysis of the deposited data

How the results depend on the processing

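The rises of Nppc and Npr3 and the fall of Corin at 50 µg/ml against the vehicle passed the threshold in all 20 alternatives. The fall of Nppa did so in 15. Leaving out an array at 1 or 10 µg/ml, a replicate block, probe set level and compared groups alone left these differences unchanged, as did robust moderation. Only errors and p-values altered there. Every loss of the Nppa call came in an alternative that moved its difference. Of 1264 recomputed values of the 8 genes, 0 reversed a called direction. Of these values 49 changed their call, and 11 of 56 differences or trends changed sign in some alternative, 0 of them called. At 1 µg/ml against the vehicle the count of called members, 0, became 1 (Npr3) with quantile normalization applied again and with array weights, and ran from 0 to 1 with 1 array left out. At 10 against 1 µg/ml the count, 3, became 1 with only the compared groups and ran from 0 to 3 with 1 array left out, with 0 without replicate 3 at 1 µg/ml or replicate 2 at 10 µg/ml. The F of Nppb minus Nppa ran from 3.2 to 8.27 with 1 array left out. Nppb lost its moderated F call in 11 of 19 alternatives. Over all genes, calls at 1 µg/ml against the vehicle numbered 608 and became 1139, 1772 and 1661 with quantile normalization again, array weights and compared groups alone, and from 176 to 1282 with 1 array left out; those at 10 µg/ml, 0, became 15 and 90 under the first 2 of these. At 10 against 1 µg/ml, 2001 became 3155 with array weights, 697 with compared groups alone and from 820 to 2694 with 1 array left out. At 50 against 10 µg/ml, 2091 became 3457 with array weights and 1312 with compared groups alone, at 50 against 1 µg/ml 3562 became 2321 with quantile normalization again, and the trend's 2622 fell to 1691 at the lowest with 1 array left out. The labels do not say whether replicate numbers pair the cultures. Correlations of deviations between same-numbered arrays ran from -0.233 to 0.431, with 6 of 18 over 0.1. With 3 arrays a group, these values cannot decide whether cultures were paired. With replicate numbers as a block, 4 members were called at 50 against 10 µg/ml (Corin added, adjusted p = 0.0375) and 4 in the trend (Nppa lost, 0.051). The cause of these shifts was not tested. No filter on dim probe sets was run, since the ratios keep no level.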

Other observations

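The surroundings of the peptide locus were read from the order of genes in RefSeq. Of the 10 protein-coding genes next to Nppb and Nppa, 5 on each side, 5 were measured. At 50 µg/ml against the vehicle limma called 0 of these 5, against 17.6% of all genes. Their differences of log2 ratios ran from -0.15 (Miip, adjusted p = 0.0835) to 0.068 (Mfn2, mitofusin 2, adjusted p = 0.565). Clcn6, a chloride and proton exchanger gene next to Nppa, had a difference of 0.028 ± 0.076 (adjusted p = 0.858), and Plod1, a lysyl hydroxylase gene on the side of Nppb, had -0.018 ± 0.051 (adjusted p = 0.861). The fall of Nppa, -0.17 ± 0.048, was the only called difference among the 7 measured genes of this stretch. It was kept in 15 of 20 alternatives, but many of these left the difference itself unchanged. With so few genes and 17.6% of all genes called, these counts do not set Nppa apart from its neighbours.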
